A study of Rattus norvegicus with 24 samples.

Results

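The 6 genes described here encode proteins of smooth muscle and of the actin filament in rat kidney: Tagln, Acta2, Tpm1, Tpm2, Tpm3 and Tmsb10. They were chosen by the gene symbol of the platform annotation, which placed each at 2 probe IDs. Values stood at 1 of these IDs for each gene, so the genes make up 6 of the 1561 probes with a value, or 6 of the 1313 named genes. Tagln, Acta2 and Tmsb10 had a value on all 24 arrays, Tpm1 on 23, Tpm3 on 22 and Tpm2 on 8.

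RNA from 4 groups of rats was compared after 2 weeks: strain 13 on HS, strain 13 on LS, strain SS on HS and strain SS on LS. From what is known of the study, HS and LS are high and low salt diets, SS is an inbred salt-sensitive rat, and in strain 13 a foreign chromosome 13 replaces the one of SS, so all groups share the SS background apart from that chromosome. The labels give no age or sex and call the tissue kidney, while the title of the series names the renal medulla. Each 2-colour array held RNA of 2 groups, and its value is the authors' log ratio, whose log base is not given in the sources used here, so that no fold is stated. There were 4 comparisons (HS over LS in strain 13, HS over LS in SS, strain 13 over SS on HS, and strain 13 over SS on LS), each with 3 replicates measured on a forward array and on an array with the dyes exchanged. Nothing in the labels says that replicates came from separate animals, so a p-value speaks only to how these samples spread, which may be technical.

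Contractile smooth muscle of vessel walls, and myofibroblasts, assemble actin filaments from the smooth muscle isoform encoded by Acta2. Tropomyosins (Tpm1, Tpm2, Tpm3) are coiled-coil proteins that lie along actin filaments and regulate the binding of myosin, and transgelin, the product of Tagln, binds and crosslinks the filaments of smooth muscle. Thymosin beta 10 (Tmsb10) binds actin monomers and holds them back from filament assembly. In the kidney, pericytes, arteriolar muscle and interstitial myofibroblasts carry the smooth muscle proteins, while nonmuscle tropomyosins and beta thymosins occur in many cell types.

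Transcription of several smooth muscle genes runs through the CArG box, the site of serum response factor, and through the MCAT element (CATTCC), the site of TEAD factors. In the RefSeq annotation of assembly GRCr8 the genes lie on chromosomes 8 (Tagln and Tpm1), 1 (Acta2), 2 (Tpm3), 4 (Tmsb10) and 5 (Tpm2), and none lies on chromosome 13, which was substituted in strain 13. Promoter windows, from 250 bases before to 50 after a start of transcription, were matched for 5 of the 6 genes, all but Tagln. The windows of Acta2, Tpm1 and Tmsb10 are shown. In SS Tmsb10 passed the test and Acta2 and Tpm1 did not, but a difference of ratios between these genes was not tested. A link of the windows to the ratios was not tested either. They are RefSeq sequences of GRCr8 on the minus strand, written 5′ to 3′, at chr1:241172454-241172753 for Acta2, chr8:76543366-76543665 for Tpm1 and chr4:106569091-106569390 for Tmsb10, and they are reference sequence, not read from SS or strain 13. Capitals mark CArG boxes with at most 1 mismatch and MCAT elements on either strand (as GGAATG on the printed strand).
Acta2: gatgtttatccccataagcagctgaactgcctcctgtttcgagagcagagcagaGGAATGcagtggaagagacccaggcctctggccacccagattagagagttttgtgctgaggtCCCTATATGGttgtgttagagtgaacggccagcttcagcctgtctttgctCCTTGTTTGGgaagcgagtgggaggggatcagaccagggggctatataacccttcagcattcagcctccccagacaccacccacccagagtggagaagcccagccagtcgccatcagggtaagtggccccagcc
Tpm1: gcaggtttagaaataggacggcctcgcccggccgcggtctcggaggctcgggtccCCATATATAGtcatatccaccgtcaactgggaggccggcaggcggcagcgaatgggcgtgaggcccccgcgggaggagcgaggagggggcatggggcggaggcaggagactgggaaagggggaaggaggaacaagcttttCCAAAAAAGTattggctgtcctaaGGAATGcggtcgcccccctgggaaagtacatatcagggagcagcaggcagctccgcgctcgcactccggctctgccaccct
Tmsb10: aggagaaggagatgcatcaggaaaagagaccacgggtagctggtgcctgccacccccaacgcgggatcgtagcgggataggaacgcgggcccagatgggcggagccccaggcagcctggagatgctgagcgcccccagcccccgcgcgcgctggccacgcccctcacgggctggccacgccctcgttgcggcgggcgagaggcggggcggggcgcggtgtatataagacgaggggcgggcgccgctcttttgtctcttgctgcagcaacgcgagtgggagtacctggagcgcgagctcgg
Acta2 and Tpm1 each held 2 CArG boxes with 1 mismatch and 1 MCAT element. Tmsb10 and Tpm2 held neither, and 2 of the 3 windows of Tpm3 held 1 such CArG box. Among all 33469 windows of 300 bases, 1.64% held an exact CArG box, 21.3% one with at most 1 mismatch and 14.2% an MCAT element, and 3.20% held a CArG box of that kind together with an MCAT element. None of the 7 windows of these genes held an exact CArG box. These matches describe the letters of the windows and not sites in use.

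Ratios are taken as HS over LS and as strain 13 over SS. This direction is likely rather than settled. It follows 13 of the 24 titles, which name the RNA of each dye. Read with the dye fields of the labels, they put HS or strain 13 in channel 1. However, only 1 of the 12 diet arrays has such a title, and LS stands before HS at the start of every title. Titles of 5 of the 6 arrays placed in the SS diet comparison give no strain. If the 4 comparisons run the same way, the diet change of strain 13 less the diet change of SS should match the strain ratio on HS less the one on LS. Across the 1006 probes measured in all RNA pairs these correlated at r = 0.65 (across genes, which are not independent replicates). All signs could still be turned at once. Arrays held between 726 and 1402 values (median 1202.5). The array with the fewest, the forward array of replicate 1 of the LS strain comparison, stood apart, and the LS values and joint differences below are also given without it. In the SS diet comparison the log ratios of replicate 1 correlated across genes with those of replicates 2 and 3 at 0.18 and 0.027, against 0.59 between replicates 2 and 3. Umod, Slc12a1, Aqp3 and Lrp2, of the thick limb, the collecting duct and the proximal tubule, had a value on all 24 arrays. Of 11 smooth muscle, pericyte and myofibroblast markers 7 had no value in the table, Myh11 (smooth muscle myosin) had a value on 6 arrays and Cspg4, a pericyte marker, on 3.

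With SS RNA on both channels, the question was what HS alters in the salt-sensitive strain. Tagln and Tmsb10 rose on HS, and the other 4 genes did not pass the test. Tagln, a marker of contractile smooth muscle, had log ratios of 0.37 and 0.24 on the forward and the dye-swap array of replicate 1. The same arrays gave 0.96 and 0.93 in replicate 2, and 0.91 and 0.80 in replicate 3. All 6 arrays were above 0, and replicate 1 lay below the others. The mean over replicates was 0.70 ± 0.35 (SD, n = 3; limma with Benjamini-Hochberg adjustment over all probes, adjusted p = 0.0105), and 7 of the 1310 probes tested had a higher ratio. Because these are ratios of bulk RNA, more cells of a type cannot be told apart from more RNA per cell, here or below.

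Tmsb10 had 0.70 and 0.17 on the forward and dye-swap arrays of replicate 1, 0.65 and 0.37 in replicate 2, and 0.60 and 0.48 in replicate 3. Each forward array lay above its dye swap, and all 6 were above 0. The replicates, as means of their 2 arrays, were at 0.435, 0.51 and 0.54, a narrower range than for Tagln. The mean was 0.50 ± 0.054 (SD, n = 3, limma adjusted p = 0.0105). Of the 6 genes tested in SS, 2 were thus called, both higher, where the background over all probes was 2.82% called in either direction and 1.83% called as higher. The genes were chosen with earlier results of these data known, so this count is not independent of that choice.

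**Figure D1:**
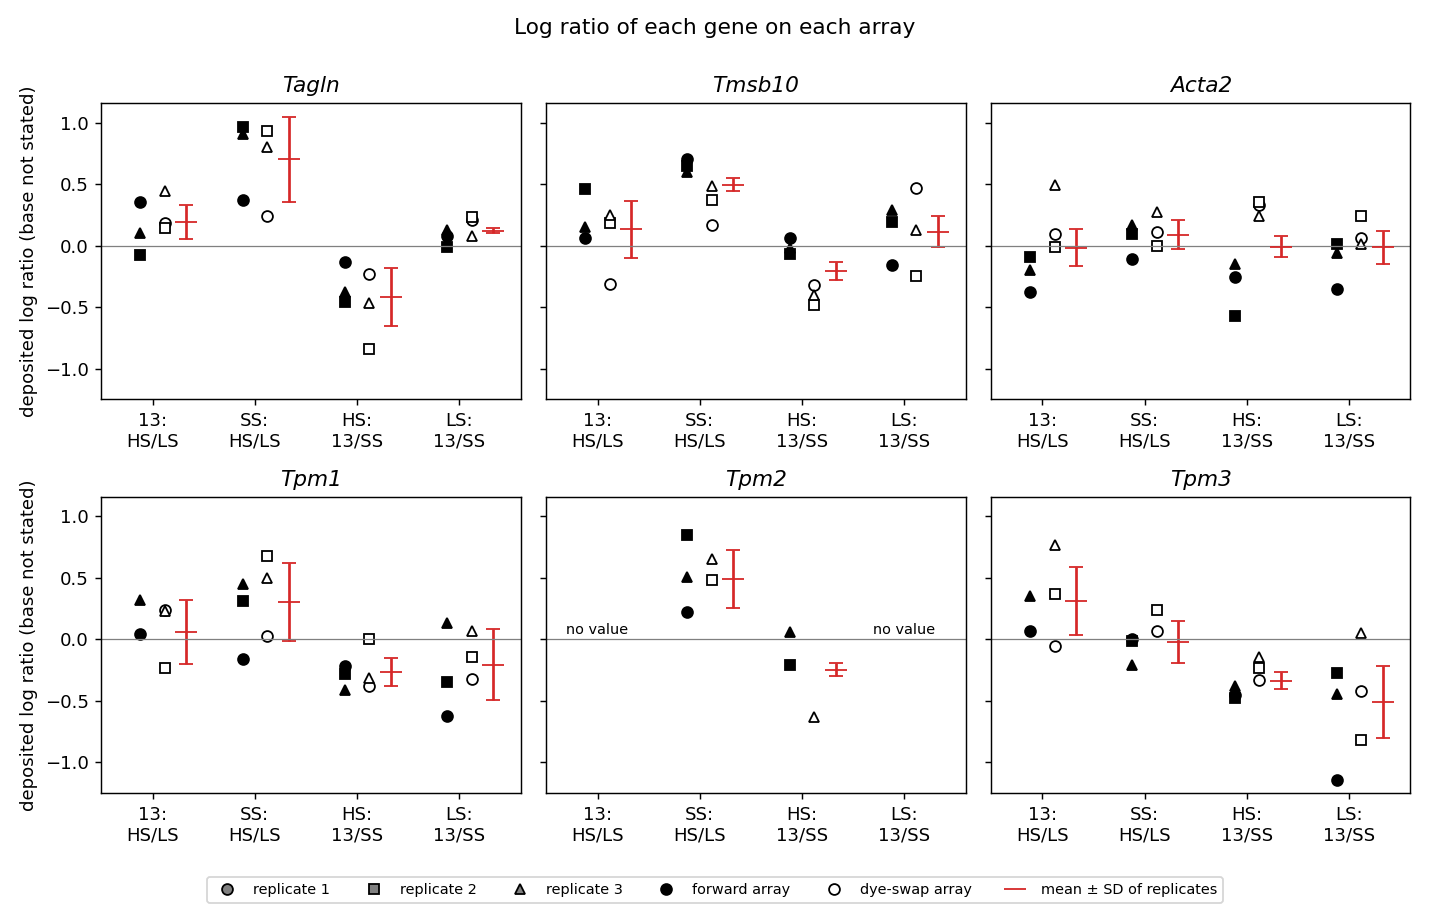
Deposited log ratio (vertical axis, log base not stated) of each gene on each array of the 4 comparisons, HS over LS in strain 13 and in SS, and strain 13 over SS on HS and on LS. Filled symbols are forward and open symbols dye-swap arrays, shapes are replicates, and the red bar is the mean ± SD of the replicates. Tagln and Tmsb10 lie above 0 on all 6 arrays of the SS diet comparison, with means of 0.70 and 0.50, while Acta2 lies around 0 with opposite signs of its forward and dye-swap arrays on HS.

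Acta2, the smooth muscle actin itself, did not pass the test in SS. On the SS diet arrays it had -0.11 and 0.11 in replicate 1, 0.09 and 0.00 in replicate 2, and 0.17 and 0.27 in replicate 3. These arrays lay on both sides of 0, and the mean of 0.088 ± 0.12 (SD, n = 3, limma adjusted p = 0.55) had a 95% interval of -0.083 to 0.26. The log ratio of Tagln exceeded that of Acta2 by 0.305, 0.90 and 0.635 in the 3 replicates. The mean of this difference was 0.61 ± 0.30 (SD, n = 3 pairs, exact paired permutation test, two-sided p = 0.25). That is the smallest p that 3 pairs allow, and the pair of genes was chosen after its values were seen.

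Among the tropomyosins, Tpm2, of smooth and slow skeletal muscle, had 0.22 on its only array of replicate 1, 0.85 and 0.48 in replicate 2, and 0.51 and 0.65 in replicate 3. All 5 arrays were above 0. The mean of 0.49 ± 0.24 (SD, n = 3) did not pass (limma adjusted p = 0.0583), and a dye effect does not cancel in replicate 1. Tpm1, which gives muscle and nonmuscle forms, had a mean of 0.30 ± 0.32 (SD, n = 3, limma adjusted p = 0.241). Its replicates were at -0.065, 0.495 and 0.475, so that replicates 2 and 3 were high and replicate 1 was not. Tpm3, which gives slow skeletal muscle and nonmuscle forms, stayed near 0, with replicates at 0.035, 0.115 and -0.21 and a mean of -0.020 ± 0.17 (SD, n = 3, limma adjusted p = 0.948). The array of replicate 3 was a forward array only. Tpm2 had values only where SS RNA on HS was on the array, so it is left out of the next median. Over the other 5 genes the median was 0.30, with 4 above 0, while over all 1310 probes the median was -0.00667 and 47.9% lay above 0. cDNA probes of related tropomyosins or actins can bind each other's transcripts, and the share of such binding was not measured.

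The calls of Tagln and Tmsb10 in SS were lost when replicate 2 or 3 was left out, in fits that called 0 of all probes in this comparison, while the value of Tmsb10 moved little. Without replicate 2 in all comparisons the values of Tagln and Tmsb10 were 0.58 and 0.4875 (limma adjusted p = 0.197 and 0.172), without replicate 3 they were 0.625 and 0.4725 (adjusted p = 0.234 for both), and with the 3 replicates of this comparison fitted alone the adjusted p was 0.238 for Tagln and 0.206 for Tmsb10. On dye-swap arrays alone Tmsb10 had 0.34 (limma adjusted p = 0.143). Without the array whose title conflicts with its channel names, opening as if it were of strain 13, both kept their calls, at 0.72 for Tagln and 0.515 for Tmsb10 (limma adjusted p = 0.00737 for both).

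Markers of other cells are set beside these values. The median of 6 fibroblast and matrix markers measured in all RNA pairs (Col1a1, Col3a1, Dcn, Pdgfra, Sparc and Vim) was 0.215, 0.375 and 0.46 in replicates 1 to 3 of the SS diet comparison. Of the 8 tested markers of that list 3 rose (Col1a1, Col3a1 and Vim), 0 fell and 7 lay above 0. Over all probes 1.83% were called as higher and 47.9% lay above 0. The median of 10 proximal tubule markers was 0.26 in replicate 1, against -0.4125 and -0.2325 in replicates 2 and 3, where Tagln and Tpm1 were highest. Of the thick limb markers 0 of 3 passed, all with means below 0 and medians of -0.24, -0.23 and -0.285 in replicates 1 to 3, and of the collecting duct markers 0 of 4 passed, with medians of -0.105, -0.0725 and -0.0975. The part of these cell types in the ratios of Tagln and Tmsb10 was not tested.

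In strain 13 the same diet comparison called 0 of the 5 genes tested (background 0.00%, 0 of 1287 probes, limma). Only 1 had an unadjusted p below 0.05, Tpm3, against 119 of the 1287 probes. Tagln had 0.35 and 0.18, -0.08 and 0.14, and 0.10 and 0.44 on the forward and dye-swap arrays of replicates 1 to 3. Of its 6 arrays 1 lay below 0, and the mean was 0.19 ± 0.14 (SD, n = 3, limma adjusted p = 0.629). Tmsb10 had a mean of 0.13 ± 0.23 (SD, n = 3, limma adjusted p = 0.634), with replicates at -0.125, 0.32 and 0.20. Tpm3 had the highest mean of the genes in this comparison, 0.31 ± 0.28 (SD, n = 3, limma unadjusted p = 0.0218, adjusted p = 0.466). Its replicates ranged from 0.01 to 0.56. Acta2 had a mean of -0.017 ± 0.15 and Tpm1 of 0.062 ± 0.26 (SD, n = 3 each), and replicates of both lay on either side of 0. Replicate 2 of Tpm1 and of Tpm3 had only its dye-swap array, so that the dye term remained in it. Tpm2 had no value in any of the 6 arrays. The fibroblast and matrix markers had medians of 0.245, 0.115 and 0.215 in these replicates and the proximal tubule markers of -0.085, -0.38 and -0.375.

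The strain comparison on HS asks how strain 13 and SS differ under salt loading. The 5 genes measured in all comparisons had means below 0, the side of a lower level in strain 13, as did Tpm2, but 0 of 6 passed (background 6.00%, 81 of 1350 probes, limma, and 2.37% called as lower). At an unadjusted p below 0.05 there were 3, against 312 of the 1350 probes (limma). The median of the 5 was -0.27, while over all probes it was 0.0183 with 44.9% below 0. Tagln had -0.13 and -0.23 on the arrays of replicate 1, -0.46 and -0.84 in replicate 2, and -0.38 and -0.47 in replicate 3. All 6 arrays were below 0, and the mean was -0.42 ± 0.24 (SD, n = 3, limma adjusted p = 0.0589). Tpm3 was also below 0 on all 6 arrays, from -0.48 to -0.14, with a mean of -0.335 ± 0.067 (SD, n = 3, limma adjusted p = 0.123). The value of Tagln lay near the threshold and passed in other fits, with an adjusted p of 0.0366 without replicate 1 and 0.035 among the probes measured in all RNA pairs, but 0.318 without replicate 2.

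Tmsb10 had 0.06, -0.07 and -0.02 on the forward arrays of the HS strain comparison and -0.32, -0.48 and -0.40 on the dye-swap arrays. The dye-swap arrays were the lower ones in every replicate, and their mean over replicates with the forward arrays was -0.205 ± 0.073 (SD, n = 3, limma adjusted p = 0.171). Tpm1 had -0.27 ± 0.11 (SD, n = 3, limma adjusted p = 0.257). Tpm2 had a value in 2 replicates, -0.21 and -0.285, of which the first is a single forward array. Acta2 showed the widest split by dye, at -0.26, -0.57 and -0.15 on forward and 0.33, 0.35 and 0.24 on dye-swap arrays, and its mean was -0.010 ± 0.087 (SD, n = 3, limma adjusted p = 0.966, 95% interval -0.18 to 0.16). Beside these, the fibroblast and matrix markers had medians of -0.155, -0.405 and -0.255 in replicates 1 to 3, and the 10 proximal tubule markers of -0.78, -0.030 and -0.4025. In these lists 1 of 8 and 2 of 11 tested markers were lower in strain 13, where 6.00% of all probes were called, 2.37% as lower. Of the collecting duct markers 3 of 4 were higher in strain 13 (Fxyd4 0.495, Scnn1a 0.38 and Aqp3 0.35), with medians of 0.4075, 0.375 and 0.3025, and of the thick limb markers 1 of 3 (Egf 0.29). Kdr, the only 1 of 10 endothelium markers with a value, was higher (0.315). Of the 2 leukocyte markers tested, Lyz2 was lower (-1.51 ± 0.83, SD, n = 3). The other, Cd53, did not pass (-0.032 ± 0.090, SD, n = 3, limma adjusted p = 0.88). The part of these cells in the ratios was not tested.

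On LS the strain comparison also called 0 of the 5 genes tested (background 0.00%, 0 of 1229 probes, limma). Over all probes 268 of 1229 had an unadjusted p below 0.05, and of the 5 genes 1 did. This was Tpm3, lower in strain 13, with -1.14 and -0.42 in replicate 1, -0.27 and -0.82 in replicate 2, and -0.44 and 0.05 in replicate 3. Of its 6 arrays 5 lay below 0, and the lowest was the array with the fewest values. The mean was -0.51 ± 0.29 (SD, n = 3, limma adjusted p = 0.0904), and -0.39 without that array (adjusted p = 0.102). Among the probes measured in all RNA pairs it passed (limma adjusted p = 0.0473). Tagln had 0.12 ± 0.022, with replicates at 0.145, 0.11 and 0.105, and Tmsb10 had 0.11 ± 0.13 (SD, n = 3 each, limma adjusted p = 0.567 and 0.447). Acta2 had -0.015 ± 0.14 and Tpm1 -0.205 ± 0.29 (SD, n = 3 each, limma adjusted p = 0.924 and 0.372). Without the array with the fewest values Tmsb10 had 0.22, Tagln 0.14, Acta2 0.053 and Tpm1 -0.155, none of them called (limma adjusted p = 0.237, 0.508, 0.704 and 0.497). The fibroblast and matrix markers had medians of 0.04, -0.0325 and 0.015 in these replicates, the proximal tubule markers of -0.2825, -0.1025 and -0.465, and the collecting duct markers of 0.2325, 0.29 and 0.1975.

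Strain and diet together ask whether the salt response differs between the strains. The difference, the diet change in strain 13 minus that in SS, was estimated from the diet arrays and, separately, from the strain arrays as the ratio on HS minus that on LS. For Tagln the diet change was 0.19 in strain 13 and 0.70 in SS, a difference of -0.51, and the strain ratio was -0.42 on HS and 0.12 on LS, a difference of -0.54. Per replicate the diet arrays gave -0.04, -0.915 and -0.585 and the strain arrays -0.325, -0.76 and -0.53. All were below 0, and replicate 1 was nearest to 0 in both sets. Their joint estimate was -0.53 ± 0.33 (SD, n = 3) and did not pass (limma adjusted p = 0.0569). The 95% interval of -0.78 to -0.27 is from the limma fit and not from that SD. Of 1164 probes 11 lay further from 0.

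Tmsb10 gave a difference of -0.36 from the diet arrays and -0.32 from the strain arrays. In single replicates these ran from -0.56 to -0.19 and from -0.42 to -0.245, all below 0. The joint estimate was -0.34 ± 0.11 (SD, n = 3, limma 95% interval -0.52 to -0.16, limma adjusted p = 0.0744). The titles of the replicate 3 strain arrays carry 1 common text on HS and LS, possibly a batch, and within it they gave -0.53 for Tagln and -0.42 for Tmsb10. Titles of replicates 1 and 2 differ in this text between HS and LS, so there such a batch and the diet cannot be told apart.

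Tpm3 lay on the other side, with 0.33 from the diet arrays and 0.17 from the strain arrays (joint estimate 0.25 ± 0.089, SD, n = 3, limma adjusted p = 0.325). Its diet change was 0.31 in strain 13 and -0.020 in SS. Acta2 had -0.050 ± 0.10 and Tpm1 -0.15 ± 0.29 (SD, n = 3 each, limma adjusted p = 0.803 and 0.607). Thus 0 of the 5 genes with a value were called for the difference (background 0.430%, 5 of 1164 probes). Tagln and Tmsb10 had an unadjusted p below 0.05 (limma), as had 182 of the 1164 probes. The fit treats the diet and the strain arrays as independent although they may share RNA, which can make its p-values too low and its intervals too narrow. Both genes passed among the 1006 probes measured in all RNA pairs (limma adjusted p = 0.0299 for Tagln and 0.0396 for Tmsb10), while from the diet arrays alone the adjusted p was 0.294 for both. Without the array with the fewest values the joint estimate was -0.54 for Tagln, -0.39 for Tmsb10, 0.19 for Tpm3, -0.084 for Acta2 and -0.18 for Tpm1, again none called (limma adjusted p = 0.0632, 0.0832, 0.386, 0.596 and 0.512).

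**Figure D2:**
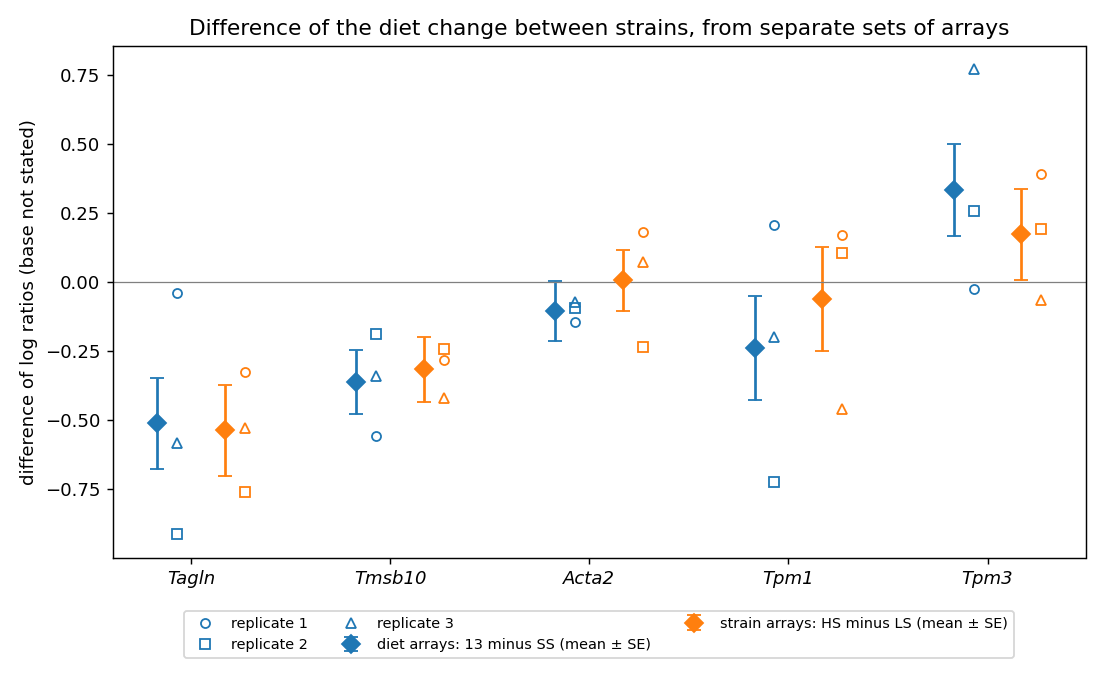
Difference of the diet change between strains (vertical axis, difference of log ratios of unstated base) for the 5 genes measured in all 4 comparisons. Blue diamonds are the diet arrays (strain 13 minus SS), orange diamonds the strain arrays (HS minus LS), each a mean ± SE, and open symbols are replicates. Tagln (-0.51 and -0.54) and Tmsb10 (-0.36 and -0.32) lie below 0 in both sets of arrays, and Tpm3 (0.33 and 0.17) above it.

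The genes differed in how far the dye moved their values. The dye term, taken as the forward minus the dye-swap array of a replicate divided by 2, averaged 0.0054 ± 0.10 for Tagln over 12 RNA pairs (SD). For Acta2 it was -0.17 ± 0.15, below 0 in 11 of 12 pairs, and for Tmsb10 0.11 ± 0.16, above 0 in 10 of 12. It was -0.063 ± 0.087 for Tpm1 over 11 pairs and -0.095 ± 0.17 for Tpm3 over 10, and 0.15 ± 0.21 for Tpm2 over 3. Averaging the 2 arrays of a replicate removes this term where both were measured.

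Related genes of the actin system were read from 5 lists. Of the 23 of them tested in the SS diet comparison 1 rose, 0 fell and the others did not pass, with 19 above 0 and a median of 0.13. Over all probes 2.82% were called in this comparison, 1.83% as higher, and 47.9% lay above 0. The gene that rose was Tnnt2, troponin T of cardiac muscle, at 0.565 ± 0.12 (SD, n = 3, limma adjusted p = 0.0105). Among the 3 other actin isoforms tested, Actg2, the enteric smooth muscle actin, had 0.305 ± 0.30 and Actb, the cytoplasmic beta actin, 0.20 ± 0.091 (SD, n = 3 each, limma adjusted p = 0.233 and 0.198). Actc1, the cardiac isoform, had 0.017 ± 0.012. The list of monomer binding, severing and polymerization held 5 tested genes, all above 0 (median 0.20). Pfn1, profilin, which delivers actin monomers to growing filaments, had 0.25 ± 0.085 (limma adjusted p = 0.0583). Tmsb4x, thymosin beta 4, which also binds actin monomers, had 0.21 ± 0.063 and Cfl1, cofilin, which severs filaments, 0.20 ± 0.071 (SD, n = 3 each, limma adjusted p = 0.171 and 0.264).

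Smooth muscle contractile genes other than those above were sparse, with 6 of 33 tested in SS and a median of 0.13. Csrp1, a LIM protein of smooth muscle, had 0.23 ± 0.22 (SD, n = 3), Adra1d, an adrenergic receptor, 0.385 ± 0.45 (SD, n = 2) and Cnn3, a nonmuscle calponin, -0.0083 ± 0.23 (SD, n = 3). Crosslinking and membrane linkage had a median of -0.0125 over 6 genes, with 3 above and 3 below 0. Among them Dbn1, drebrin, which binds the side of actin filaments, had 0.18 ± 0.29 and Pdlim1, a LIM protein, 0.13 ± 0.24 (SD, n = 3 each, limma adjusted p = 0.504 for both). The striated muscle list held 3 tested genes, all above 0 (median 0.31), with Myl2, a cardiac myosin light chain, at 0.31 ± 0.086 (SD, n = 3, limma adjusted p = 0.199). In strain 13 0 of the 19 related genes tested passed (limma), and their median was 0.013. None of the 19 had an unadjusted p below 0.05, against 119 of 1287 over all probes.

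On HS, 1 related gene was higher in strain 13 than in SS, 1 was lower and the others of 21 did not pass, with 9 above and 12 below 0 (median -0.030). Over all probes 6.00% were called in this comparison. The lower was Tnnt2 at -0.48 ± 0.040 (SD, n = 3, limma adjusted p = 0.0177). Its gene lies on the substituted chromosome 13, and on LS its ratio was 0.0083 ± 0.030 (SD, n = 3, limma adjusted p = 0.961). The higher was Actc1 at 0.30 ± 0.020 (SD, n = 3, limma adjusted p = 0.0236), which had 0.21 ± 0.11 on LS (adjusted p = 0.0962). Actg2 had -0.33 ± 0.15, Cfl1 -0.21 ± 0.15 and Myl2 -0.38 ± 0.13 (SD, n = 3 each, limma adjusted p = 0.166, 0.19 and 0.0987). Sptan1, a spectrin, had 0.30 ± 0.25 and Add2, an adducin that links spectrin to actin, 0.195 ± 0.245 (SD, n = 3 each, limma adjusted p = 0.123 and 0.371). Myh11, the myosin heavy chain of smooth muscle, had -0.14 ± 0.22 (SD, n = 3), and Cnn3 0.15 ± 0.048 (limma adjusted p = 0.507 and 0.294). On LS 0 of the 20 related genes tested passed (limma), with 4 at an unadjusted p below 0.05, against 268 of 1229 over all probes. When the diet change was compared between strains, 1 of 18 passed (background 0.430%, 5 of 1164 probes). This was Tnnt2 at -0.46 ± 0.105 (SD, n = 3), with a limma adjusted p that rounds to the threshold itself, 0.05.

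**Figure D3:**
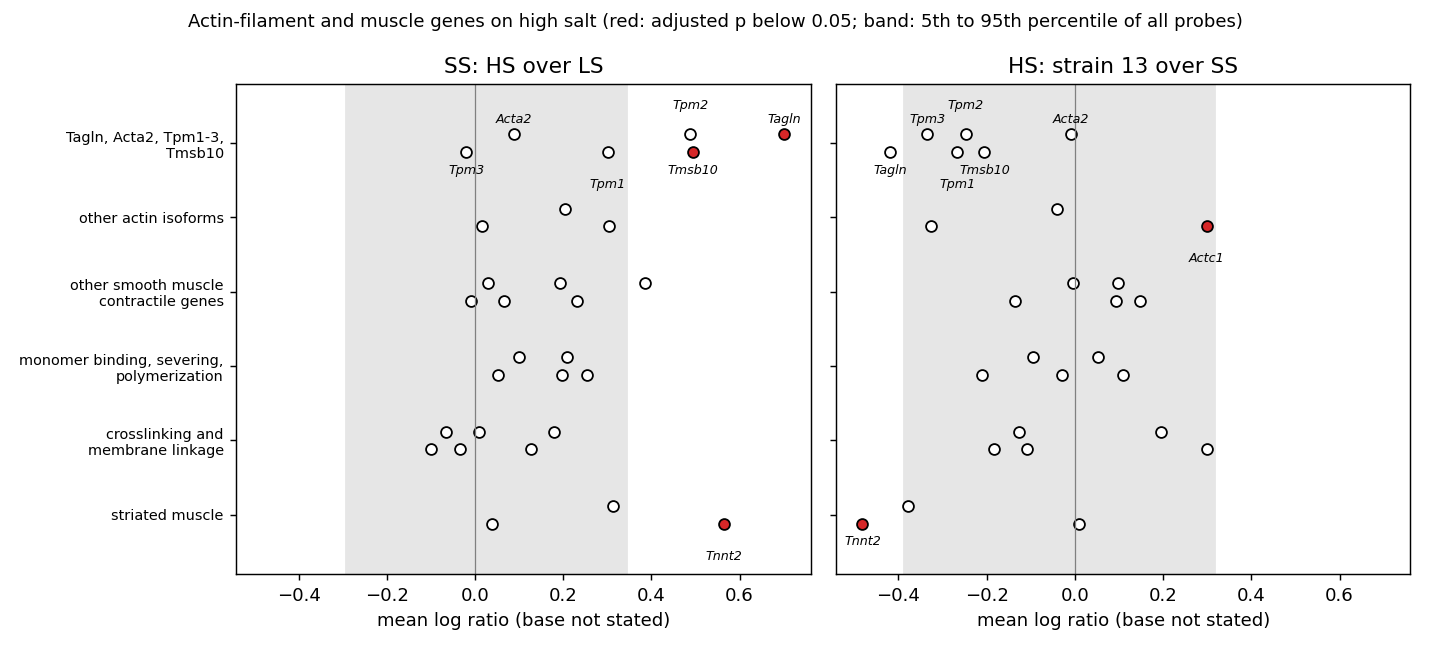
Mean log ratio (horizontal axis, log base not stated) of the 6 genes and of the related lists for HS over LS in SS (left) and for strain 13 over SS on HS (right). Each circle is a gene, red circles have a limma adjusted p below 0.05, and the grey band spans the 5th to 95th percentile of all probes. Tagln (0.70), Tmsb10 (0.50), Tpm2 (0.49) and Tnnt2 (0.565) lie right of the band in SS, while most other genes of the actin system lie within it.

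Likeness was described as Pearson's r over the 12 RNA pairs among 861 other named probes measured in all of them. The pairs share RNA and fall into 4 comparisons, so r has no test. The 5 probes most like Tagln were Col3a1 (0.985), Mgp (0.962), Vim (0.959), Col1a1 (0.956) and Col2a1 (0.941). Col3a1 and Col1a1 encode fibrillar collagens, Col2a1 the collagen of cartilage, Mgp an inhibitor of calcification and Vim the filament protein vimentin. Col3a1 had 0.34 ± 0.14 in strain 13 and 0.82 ± 0.32 in SS for HS over LS, and -0.43 ± 0.24 on HS and 0.09 ± 0.098 on LS for strain 13 over SS (SD, n = 3 each).

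The probes most like Tmsb10 were Tsc22d1 (0.964), Csnk2b (0.959), Tnnt2 (0.959), Prkcb (0.955) and Clu (0.947), none of them a collagen. Csnk2b encodes a subunit of casein kinase 2, Prkcb a protein kinase C and Clu the secreted chaperone clusterin. Among the probes ordered by likeness to Tagln, Tmsb10 stood at rank 24 (r = 0.844) and Tpm1 at rank 50 (0.756). Acta2 stood at rank 163 (0.425), and its own most similar probe was Pvalb, which encodes the calcium-binding protein parvalbumin (0.874). For Tpm1 the first was Tcp1, a chaperonin subunit (0.891), and the fourth Dcn, the matrix proteoglycan decorin (0.856). For Tpm3 the first was Anxa1, an annexin (0.817), and its r with Tagln was 0.299.

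**Figure D4:**
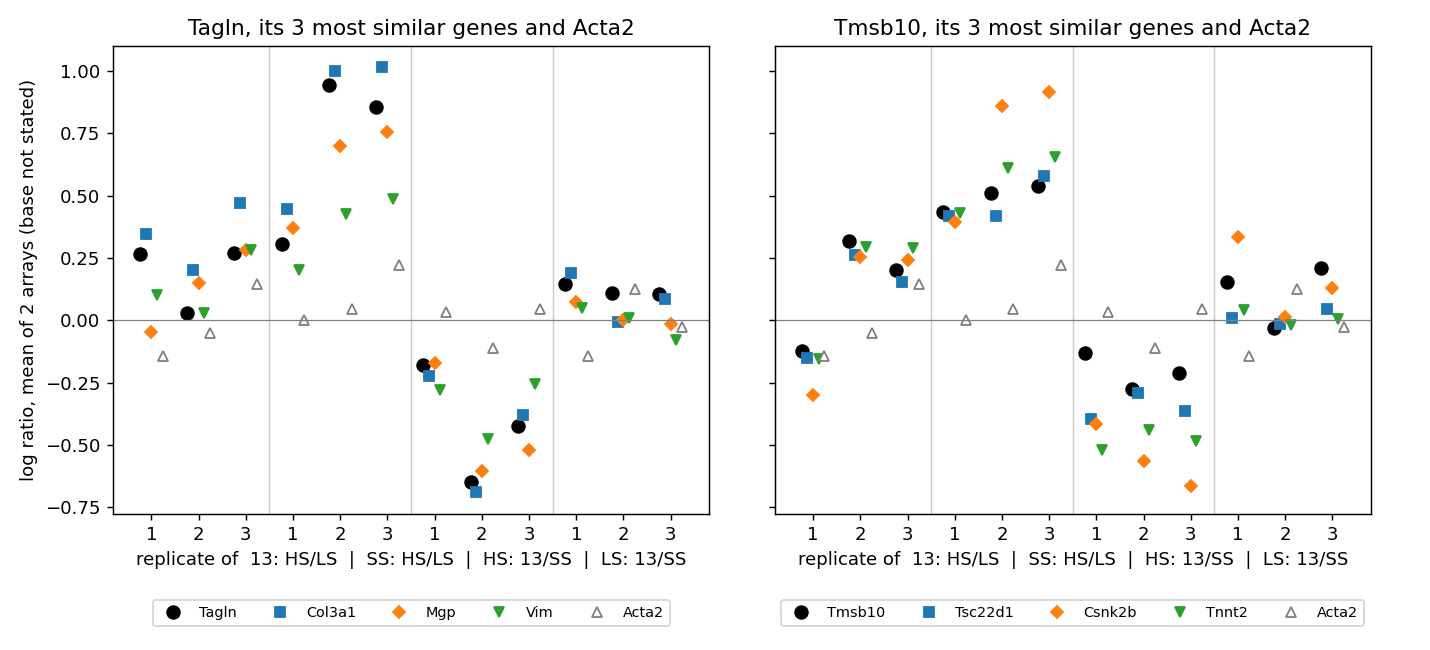
Log ratio of each replicate (vertical axis, mean of 2 arrays, base not stated) in the 4 comparisons for Tagln (left) and Tmsb10 (right), the 3 most similar genes of each, and Acta2. Tagln, Col3a1, Mgp and Vim lie high in SS and low in strain 13 on HS, with replicate 1 nearest to 0 in both comparisons for Tagln, while Acta2 stays between -0.145 and 0.22.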

How the data were processed

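Kidney RNA of 4 groups of rats was measured on 24 two-colour arrays. The deposited values are log-ratio scores of unstated base, and the sources used here do not give the background correction, filters or normalization behind them. Each array had a mean within 0.0049 and a median within 0.04 of 0. Per the labels' dye fields, the dyes of channels 1 and 2 were exchanged on dye-swap arrays. Forward and dye-swap arrays of a replicate correlated across probes at -0.26 to 0.52, above 0 in 6 of 12 RNA pairs. In the SS diet comparison this was -0.26, 0.41 and 0.52 in replicates 1 to 3. Over the 548 probes on all arrays, the diet and the strain estimates of the difference were correlated. This gave r = 0.77 for the sum of both orientations and 0.22 for their difference. The signs of dye-swap arrays were therefore kept as deposited, which does not settle a turn of all signs at once.

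Probes were named through the platform annotation and the RefSeq table of GRCr8 by gene identifier (1316 of 1561 with 1 symbol). The arrays of each replicate were averaged (12 RNA pairs), and probes with values in 2 or more of 3 replicates entered the test. With R 4.3.3, limma 3.58.1 fitted 4 group means to all pairs, with two-sided tests against 0 and Benjamini-Hochberg adjustment over all probes (threshold 0.05). In strain 13, 1 array without a replicate number was taken as the missing forward array of replicate 1. Precision is limited by the number of arrays, since intensities were not used.

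Related genes named are those called in any comparison or with the 2 lowest p-values of their list in the SS diet or HS strain comparison. A further list of related genes is not reported here. Likest probes are the 5 with the highest r. Members and lists were chosen with earlier results of these data known. Alternatives were another scaling, centring, filters, the replicate block, single orientations, single arrays and replicates left out.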

Additional observations from a re-analysis of the deposited data

Results flagged for a closer look

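Tagln had replicates on opposite sides of 0 in the strain comparisons of the diets: every replicate was below 0 on HS (-0.18, -0.65 and -0.425) and above 0 on LS (0.145, 0.11 and 0.105). Neither mean passed (-0.42 on HS and 0.12 on LS, limma adjusted p = 0.0589 and 0.567). On LS the 95% interval was -0.14 to 0.38. The difference itself, tested together with the diet arrays, was -0.53 and missed the threshold (limma adjusted p = 0.0569). Over the 4 comparisons, 21 sets of 5 or 6 arrays of a gene were examined for a single array far from the rest, of which chance would mark about 1 in 20, and none was found.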

How the results depend on the processing

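Over all probes, the count of calls was 0 for the diet in strain 13, 37 in SS, 81 for the strains on HS, 0 on LS and 5 for the difference of the diet change. Leaving out a replicate number from all comparisons gave 0 to 1, 0 to 134, 0 to 27, 0 to 1 and 0 to 10 in the same order. Forward arrays alone gave 15, 118, 127, 70 and 13, and dye-swap arrays alone 3, 62, 411, 51 and 12, where a dye effect does not cancel. All 24 arrays with the RNA pair as a random block gave 9, 118, 189, 67 and 63, at an estimated correlation of -0.263 within pairs. Equal spread of arrays gave 65 in SS, 14 on HS (78.6% higher, against 60.5%), 22 on LS (31.8% higher) and 0 for the difference. Of the 4 calls for the difference with median-centred arrays 75% were higher, against 60% of 5. Restricting to probes in all RNA pairs, which tests fewer probes, gave 58 in SS, 35 on LS and 39 for the difference. Without the array of conflicting title there were 60 in SS and 12 for the difference, without the array lacking a number 2, and without the array with the fewest values, chosen after seeing the data, also 2. A comparison's own replicates alone gave 0 in SS, on HS and for the difference, which was 0 too from the diet or the strain arrays alone. The cause of these shifts was not tested.

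The replicate block gave 44 on HS and 8 for the difference, and changed no call of the 6 genes. Same-numbered deviations correlated from -0.67 to 0.43, and 6 of 18 lay above 0.1, while 14 of 36 correlated best with their own number. Between the diet comparisons all 3 lay above 0.1 (0.21, 0.15 and 0.25), and the 6 diet pairs fitted alone, chosen after seeing the data, called 0 probes for the difference with the replicate block and 0 without it (limma adjusted p with the block 0.41 for Tagln and 0.383 for Tmsb10). Between the SS diet and the HS strain comparison they were -0.67, -0.59 and -0.29. RNA of SS on HS enters these 2 comparisons with opposite signs, but titles name a shared RNA only in replicate 3, and a block does not model it.

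Directions turned only for values without a call as reported. Leaving out a replicate number moved Acta2 between -0.0975 and 0.0475 for the diet in strain 13, -0.0375 and 0.04 for the strains on HS, -0.085 and 0.05 on LS, and -0.084 and 0.0075 for the difference of the diet change, Tpm1 between -0.045 and 0.2075 for the diet in strain 13, and Tpm3 between -0.0875 and 0.075 for the diet in SS. On dye-swap arrays alone Acta2 turned to 0.19 for the diet in strain 13, 0.31 on HS (limma adjusted p = 0.0385), 0.10 on LS and 0.13 for the difference, and Tpm3 to 0.155 for the diet in SS. Acta2 also turned to 0.062 in strain 13 without the array lacking a number, to 0.0055 with equal spread and 0.053 without the array with the fewest values on LS, and to 0.005 for the difference from the strain arrays. Tpm3 in SS turned to 0.031 with 24 arrays. With 3 replicates per comparison, small ratios such as those of Acta2 could not be told from 0.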
